A study of Mus musculus with 10 samples.

Results

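Insulin-like growth factor (IGF) signalling was described in the forming mouse pinna through 9 genes: the ligand gene *Igf1*, the receptor genes *Igf1r* and *Igf2r*, and the binding protein genes *Igfbp2*, *Igfbp3*, *Igfbp4*, *Igfbp5*, *Igfbp6* and *Igfbp7*. These members are 9 of the 53465 gene rows of the deposited count table, matched by Ensembl gene ID, and all 9 passed the filter on low counts that left 16426 genes for testing. The members were chosen from results of the same comparison that is described here, so their fold changes and adjusted p-values are given as a description and support nothing further.

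IGF1 and IGF2 are secreted peptides that promote growth and survival of embryonic cells by activating IGF1R, a tyrosine kinase receptor that signals through insulin receptor substrates to the PI3K-AKT-TOR and MAPK cascades. IGF2R, also the cation-independent mannose 6-phosphate receptor, carries IGF2 to lysosomes and so removes it. The binding proteins hold IGFs in extracellular fluid and matrix, where they prolong their life or withhold them from the receptor, and secreted proteases release the ligand by cleaving them. In cartilage, muscle and connective tissue, the tissues from which a pinna is built, the balance of these parts is a known regulator of growth.

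Bulk RNA-seq was performed on whole pinna prominences micro-dissected from mouse embryos at E14.5 (embryonic day), with 5 wild-type (WT) and 5 homozygous knock-in libraries (labelled KI, here mEC1dup/dup). Each mEC1dup/dup allele carries an additional copy, inserted with CRISPR/Cas9, of mEC1, an enhancer near the homeobox gene *Hmx1*, and both genotypes were kept on the C57BL/6 J background with no other allele given in the labels. Per the study's methods the replicates were biologically independent; no sex was given for any library, and a whole dissected prominence mixes fibroblasts, cartilage, muscle, skin and vessels. *Hmx1*, the gene next to the duplicated enhancer, rose from 26.6 ± 3.0 to 66.2 ± 9.11 CPM (counts scaled to library size; mean ± SD, n = 5 each; adjusted p = 0.000127, edgeR), and no mEC1dup/dup library overlapped a WT library.

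Library totals lay between 17461544 and 18462073 counts. Markers of fibroblasts and mesenchyme summed to 8416 to 14171 CPM in WT and 9477 to 10359 CPM in mEC1dup/dup libraries, and those of chondrocytes to 5375 to 8915 CPM and 2328 to 6936 CPM, so the tissue label was matched by its main cell types. *Xist*, transcribed from the inactive X chromosome of female cells, had at most 5 counts in every WT library but 12812, 19040, 18165, 2096 and 0 counts in mEC1dup/dup replicates 1 to 5. Embryonic globin transcripts made up 18.4% to 23.3% of all globin counts in WT and 32.5% to 35.6% in mEC1dup/dup libraries. By *Xist*, only mEC1dup/dup replicate 5 matched the WT libraries, so genotype can be set apart from sex through that library alone. The globin share did not overlap between the genotypes, so genotype cannot be told apart here from embryonic stage for any gene below. WT replicate 4 stood apart in neuron markers, which summed to 430 CPM in it, the highest of the 10 libraries. mEC1dup/dup replicate 1 stood apart in chondrocyte markers, with a sum of 2328 CPM where the other 4 had 5084 to 6936 CPM.

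Among the members, *Igfbp7* and *Igf2r* transcripts were called lower in mEC1dup/dup pinnae. *Igfbp7* fell by 39.4% and *Igf2r* fell by 18.4%. *Igfbp6* had a fold change of 0.669 without passing the threshold, whereas the abundant *Igfbp4* and *Igfbp5*, and *Igf1* and *Igf1r*, had fold changes between 0.965 and 1.02. A gene was called when its adjusted p was at most 0.05 and its average log2 CPM at least 1, with edgeR's quasi-likelihood test and Benjamini-Hochberg adjustment over all 16426 genes. By that rule 2 of 9 members were called lower, against 1.81% of all tested genes, and 0 of 9 were called higher, against 0.834%. At an unadjusted p under 0.05 the same edgeR fit had 5 members lower, against 9.08% of all tested genes, and 0 higher, against 7.10%. DESeq2 called 4 members lower, *Igfbp7*, *Igf2r*, *Igfbp3* and *Igfbp6*, where it called 3.10% of all genes lower and 1.95% higher. limma called 2 lower, where it called 1.68% of all genes lower and 0.724% higher, and both tools called 0 members higher. The log2 fold change was negative in 8 of 9 members with a median of -0.14, beside a median of -0.00 over all tested genes. In 2 of 9 members every mEC1dup/dup library lay below every WT library, against 2.75% of all tested genes, and in 0 of 9 above, against 2.33%. Because the members were selected on this contrast, nothing is read from these shares.

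**Figure D1:**
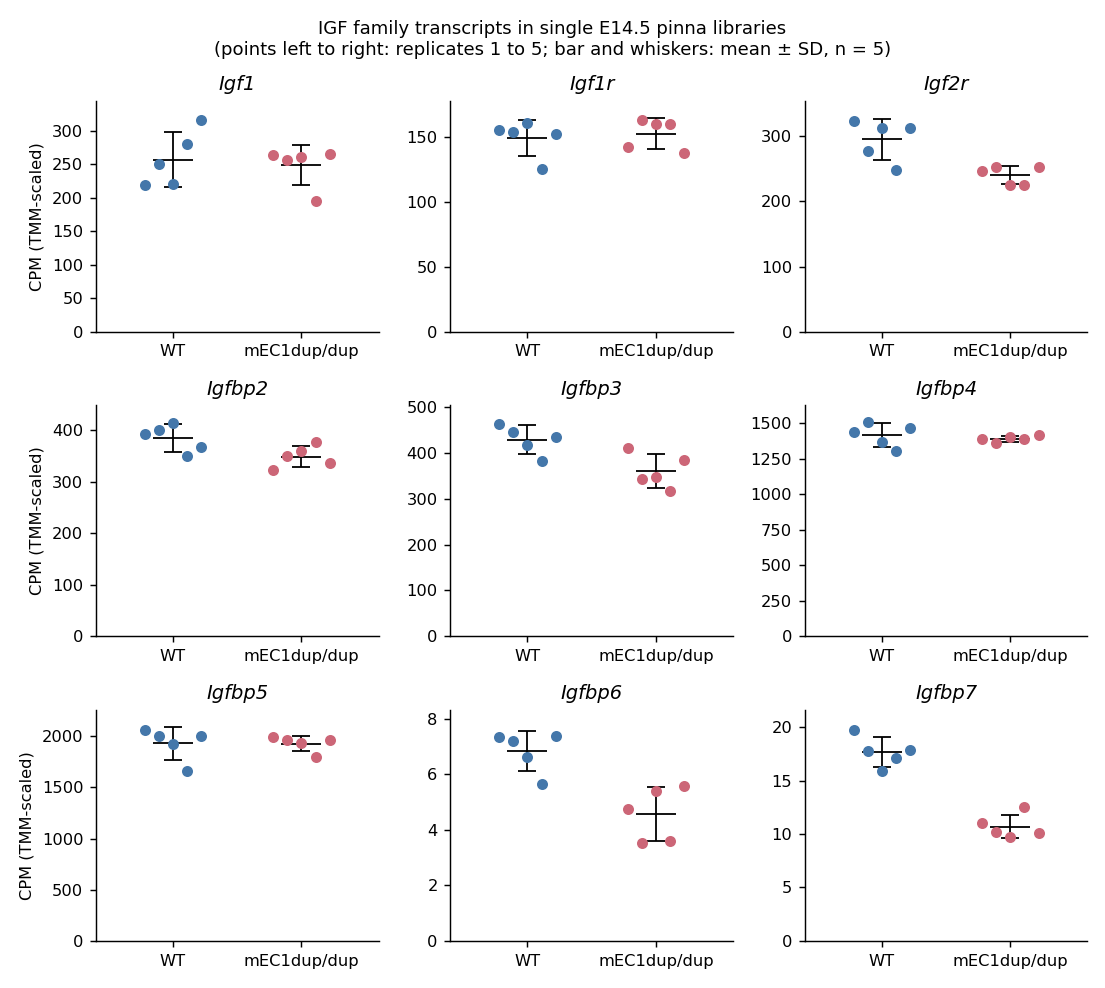
Level of each of the 9 IGF genes in each library, as TMM-scaled CPM on axes that start at 0, for 5 WT (blue) and 5 mEC1dup/dup (red) libraries; bars and whiskers show mean ± SD. For *Igfbp7* (9.72 to 12.5 against 15.9 to 19.7) and *Igfbp6* (3.53 to 5.58 against 5.65 to 7.37) all mEC1dup/dup points lie below all WT points, and in the other 7 panels the genotypes overlap.

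The upstream sequences of 3 members are shown because *Igfbp7* and *Igfbp6* are the members whose genotypes did not overlap and *Igf1* is the member whose promoter holds the core of the motif bound by HMX proteins. Each is the 250 bases before the annotated start of the canonical transcript, read 5′ to 3′ on the gene's strand from GRCm39 with GENCODE vM39. Capitals mark the HMX core (CAAGTG) in *Igf1*, the CCAAT box in *Igfbp6* and the GC box (GGGCGG or its complement CCGCCC) in *Igfbp7*. The windows are chr10:87694659-87694908 on the plus strand for *Igf1*, chr15:102052447-102052696 on the plus strand for *Igfbp6* and chr5:77555915-77556164 on the minus strand for *Igfbp7*.
Igf1: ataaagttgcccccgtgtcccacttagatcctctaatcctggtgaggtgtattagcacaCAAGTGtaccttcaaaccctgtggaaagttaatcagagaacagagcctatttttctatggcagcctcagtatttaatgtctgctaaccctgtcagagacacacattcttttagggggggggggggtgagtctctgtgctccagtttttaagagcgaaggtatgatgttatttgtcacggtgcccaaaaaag
Igfbp6: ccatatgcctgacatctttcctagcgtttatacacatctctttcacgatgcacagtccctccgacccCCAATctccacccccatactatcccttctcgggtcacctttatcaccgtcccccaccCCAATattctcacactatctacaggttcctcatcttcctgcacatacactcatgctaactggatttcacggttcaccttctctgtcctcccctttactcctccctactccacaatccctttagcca
Igfbp7: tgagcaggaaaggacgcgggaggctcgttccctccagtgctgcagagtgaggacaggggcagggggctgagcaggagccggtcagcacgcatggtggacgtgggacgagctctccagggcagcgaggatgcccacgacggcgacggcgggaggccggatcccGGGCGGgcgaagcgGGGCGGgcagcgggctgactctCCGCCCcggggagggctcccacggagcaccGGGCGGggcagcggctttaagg

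Over windows of 300 bases, from 250 before to 50 after the start, the HMX core was searched on both strands. It occurred in 14.3% of 21757 protein-coding promoters and in 1 of 9 members, *Igf1*, where its first base lay at -191. The CCAAT box, on both strands, occurred in 39.9% of promoters and in 2 members, at -183 and -126 in *Igfbp6* and at -52 in *Igfbp3*. The GC box occurred in 42.5% of promoters and in 4 members: *Igfbp7* held it at -88, -74, -52 and -22, *Igf2r* at -54, -10 and -4, *Igfbp2* at -123, -108 and -47, and *Igf1r* at 5 positions. The TATA box (TATAAA, on the gene's strand) occurred in 8.96% of promoters and in *Igfbp4*, at -22. None of these letters was found in the *Igfbp5* window. GC content of the windows ran from 46% in *Igf1* and 50% in *Igfbp6* to 73% in *Igfbp7* and 80.7% in *Igf1r*, beside a median of 54.3% over all promoters. A match describes the sequence only and is neither a measured binding site nor a cause of a difference.

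*Igf1* (ENSMUSG00000020053, chr10:87693642-87772904, plus strand) encodes the ligand that drives most growth after birth and also acts in embryonic muscle and mesenchyme. Its level was 219, 250, 220, 280 and 316 CPM in WT replicates 1 to 5 and 264, 256, 261, 195 and 265 CPM in mEC1dup/dup replicates 1 to 5. The genotypes overlapped widely, and among the members *Igf1* had the highest coefficient of variation in WT, 16.2%. Its log2 fold change was -0.05 ± 0.11 (SE; adjusted p = 0.863, edgeR), and the 95% interval of the fold change ran from 0.823 to 1.13. The sign turned when WT replicate 5 was left out (0.04) or mEC1dup/dup replicate 4 (0.02). With the embryonic globin share in the fit it was -1.12 ± 0.36 (adjusted p = 0.898), the largest move of any member among the alternatives run.

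*Igf1r* (ENSMUSG00000005533, chr7:67601518-67883416, plus strand), the signalling receptor, had 155, 154, 161, 125 and 152 CPM in WT and 142, 163, 160, 160 and 138 CPM in mEC1dup/dup libraries. WT replicate 4 was the lowest of all 10 and the rest of the values interleaved. The log2 fold change of 0.03 ± 0.07 (adjusted p = 0.871, edgeR) had a 95% interval in fold from 0.923 to 1.13, and without WT replicate 4 it was -0.03. Of its exonic bases 6.31% are also exonic for *Pgpep1l* on the opposite strand, a gene with at most 0.701 CPM in any library.

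*Igf2r* (ENSMUSG00000023830, chr17:12901293-12988614, minus strand), the clearance receptor for IGF2 and in mouse an imprinted gene expressed mainly from the maternal allele, had 323, 278, 313, 249 and 313 CPM in WT replicates 1 to 5. In mEC1dup/dup replicates 1 to 5 it had 247, 253, 225, 226 and 253 CPM. The highest mEC1dup/dup library exceeded only WT replicate 4. The log2 fold change was -0.29 ± 0.07 (adjusted p = 0.0377, edgeR), a called decrease, with a 95% interval in fold from 0.737 to 0.903. The call was lost in 8 of 10 fits that left out 1 library and held without WT replicate 4 and without mEC1dup/dup replicate 1, with log2 fold changes between -0.35 and -0.26 and adjusted p between 0.00327 and 0.117. The fits that lost it were those without WT replicate 1, 2, 3 or 5 or mEC1dup/dup replicate 2, 3, 4 or 5. With *Xist* as a covariate the log2 fold change was -0.25 (adjusted p = 0.507), and with the embryonic globin share in its place it was 0.24 ± 0.26 (adjusted p = 0.918).

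*Airn*, the antisense RNA that silences *Igf2r* on the paternal allele, starts within *Igf2r* but shares 0 of its exonic bases. It had 16.4 to 19.6 CPM in WT and 12.3 to 16.9 CPM in mEC1dup/dup libraries, with a log2 fold change of -0.25 ± 0.09 that was not called (adjusted p = 0.153, edgeR). Without strand, reads of *Airn* and of unspliced *Igf2r* in the stretch where they overlap cannot be told apart. The ratio of *Igf2r* to *Igf1r* per union exon length was 4.4, 3.80, 4.11, 4.19 and 4.34 in WT and 3.67, 3.27, 2.97, 2.98 and 3.86 in mEC1dup/dup libraries. Only mEC1dup/dup replicate 5 lay within the WT range. With the length of the longest transcript the mean ratios were 2.77 in WT and 2.23 in mEC1dup/dup libraries, in place of 4.17 and 3.35. These ratios follow from the counts above and carry no test.

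*Igfbp2* and *Igfbp5* are neighbours on chromosome 1, on opposite strands with 5456 bases between them. *Igfbp2* (ENSMUSG00000039323, chr1:72863606-72891634, plus strand) encodes a binding protein of fetal tissues that also binds integrins. It had 392, 401, 414, 349 and 367 CPM in WT and 322, 350, 359, 376 and 336 CPM in mEC1dup/dup libraries, so that the genotypes overlapped. Its log2 fold change of -0.14 ± 0.05 was not called (adjusted p = 0.199, edgeR). The 95% interval in fold ran from 0.837 to 0.982.

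*Igfbp5* (ENSMUSG00000026185, chr1:72897091-72914043, minus strand) encodes a matrix-bound binding protein found in muscle and bone. Its level was 2062, 2008, 1921, 1662 and 2002 CPM in WT and 1989.7, 1964, 1931, 1801 and 1961 CPM in mEC1dup/dup libraries. The mEC1dup/dup values all lay inside the WT range. The fold change was 0.999 with a 95% interval from 0.921 to 1.08 (adjusted p = 0.995, edgeR), and its sign varied among fits between -0.05 and 0.02 on the log2 scale when 1 library was left out.

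*Igfbp3* (ENSMUSG00000020427, chr11:7156086-7164179, minus strand) encodes the main carrier of IGFs in blood, which in tissue restrains IGF1R activation. Its level was 463, 445, 417, 381 and 435 CPM in WT and 410, 342, 348, 316 and 384 CPM in mEC1dup/dup libraries. mEC1dup/dup replicates 1 and 5 lay above WT replicate 4, and the other 3 lay below every WT library. The log2 fold change of -0.25 ± 0.07 did not pass (adjusted p = 0.0757, edgeR; 95% interval in fold 0.758 to 0.932). It passed without WT replicate 4 and without mEC1dup/dup replicate 1, where adjusted p was 0.0229 and 0.0274, and also with DESeq2 (adjusted p = 0.0121). With the replicate number as a block in the edgeR fit it passed too (adjusted p = 0.00514). With *Xist* as a covariate it was -0.21 (adjusted p = 0.610) and with the globin share 0.11 ± 0.30 (adjusted p = 0.966). The left-out libraries are the libraries that stood apart in neuron and chondrocyte markers, and the part of those cells in the *Igfbp3* values was not tested. *Igfbp1*, 3539 bases from *Igfbp3*, had at most 1.10 CPM in any library, with a log2 difference of 0.27 ± 0.33 (adjusted p = 0.751, edgeR). Its average log2 CPM of -0.34 was under the limit of 1, so it could not be called.

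*Igfbp4* (ENSMUSG00000017493, chr11:98932064-98945218, plus strand) encodes an inhibitor of IGF action that the metalloprotease PAPP-A inactivates. It had 1439.7, 1510.0, 1366, 1302 and 1466 CPM in WT and 1388, 1359.6, 1402, 1393 and 1419 CPM in mEC1dup/dup libraries. The mEC1dup/dup libraries were tighter, with a coefficient of variation of 1.56% against 5.86% in WT, and lay within the WT range. The fold change was 0.983 with a 95% interval from 0.925 to 1.04 (adjusted p = 0.819, edgeR).

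*Igfbp6* (ENSMUSG00000023046, chr15:102052697-102057953, plus strand) encodes a binding protein that prefers IGF2 over IGF1. It had 7.34, 7.20, 6.62, 5.65 and 7.37 CPM in WT and 4.74, 3.53, 5.38, 3.61 and 5.58 CPM in mEC1dup/dup libraries. Every mEC1dup/dup library lay below every WT library, but mEC1dup/dup replicate 5 and WT replicate 4 were close. These levels rest on 64 to 133 counts, and at the lowest count the counting error alone is 12.5%. The log2 fold change was -0.58 ± 0.15 (adjusted p = 0.0638, edgeR), which missed the threshold, with a 95% interval in fold from 0.532 to 0.841. It passed when WT replicate 4 was left out, and adjusted p ran from 0.0344 to 0.154 over the fits without 1 library. It also passed with DESeq2 (adjusted p = 0.0127) and with the replicate number as a block in the edgeR fit (adjusted p = 0.0381). With *Xist* as a covariate it was -0.39 (adjusted p = 0.653) and with the globin share -0.18 (adjusted p = 0.974).

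*Igfbp7* (ENSMUSG00000036256, chr5:77493130-77555931, minus strand) encodes a low-affinity relative of the other binding proteins, a secreted protein known from vessel walls and their basement membrane. It had 19.7, 17.8, 15.9, 17.1 and 17.9 CPM in WT replicates 1 to 5, from 341, 321, 283, 308 and 323 counts. In mEC1dup/dup replicates 1 to 5 it had 11, 10.2, 9.72, 12.5 and 10.1 CPM, from 193, 185, 179, 231 and 187 counts. A gap from 12.5 to 15.9 CPM separated the genotypes. The log2 fold change was -0.72 ± 0.09 (adjusted p = 0.00188, edgeR), with a 95% interval in fold from 0.532 to 0.691, and *Igfbp7* ranked 13 of 16426 genes by p. It was called lower in all 10 fits that left out 1 library, with log2 fold changes from -0.78 to -0.68 and adjusted p from 0.00178 to 0.0120.

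The *Igfbp7* difference had the same direction but no call once sex or stage entered the comparison. Of 16426 genes, the fit with *Xist* called 1 lower and 2 higher, and the fit with the globin share called 0. A lost call is thus what nearly every gene showed. With *Xist* as a covariate the log2 fold change of *Igfbp7* was -0.75 ± 0.15 (adjusted p = 0.167), and with the embryonic globin share it was -0.40 ± 0.38 (adjusted p = 0.907). In a comparison of the 5 WT libraries with mEC1dup/dup replicates 4 and 5, those with the fewest *Xist* counts, it was -0.64 (adjusted p = 0.159). That choice of libraries was made after seeing the data, and the fit called 0 genes lower and 1 higher of 17165. Replicate 4 still had 2096 *Xist* counts, so this comparison was not matched by *Xist*. In mEC1dup/dup replicate 5, which like the WT libraries lacked *Xist*, *Igfbp7* stood at 10.1 CPM, below the lowest WT value of 15.9 CPM. *Igfbp7* lies on the same chromosome as *Hmx1* but 41.9 Mb from it.

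Of the exonic bases of *Igfbp7*, 13.7% are also exonic for *Polr2b* on the opposite strand. The kits named in the sources do not mark strand, so reads from that stretch cannot be told apart. *Polr2b*, a subunit of RNA polymerase II, had 100 to 118 CPM over all libraries, with a log2 fold change of 0.05 ± 0.04 (adjusted p = 0.586, edgeR).

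**Figure D2:**
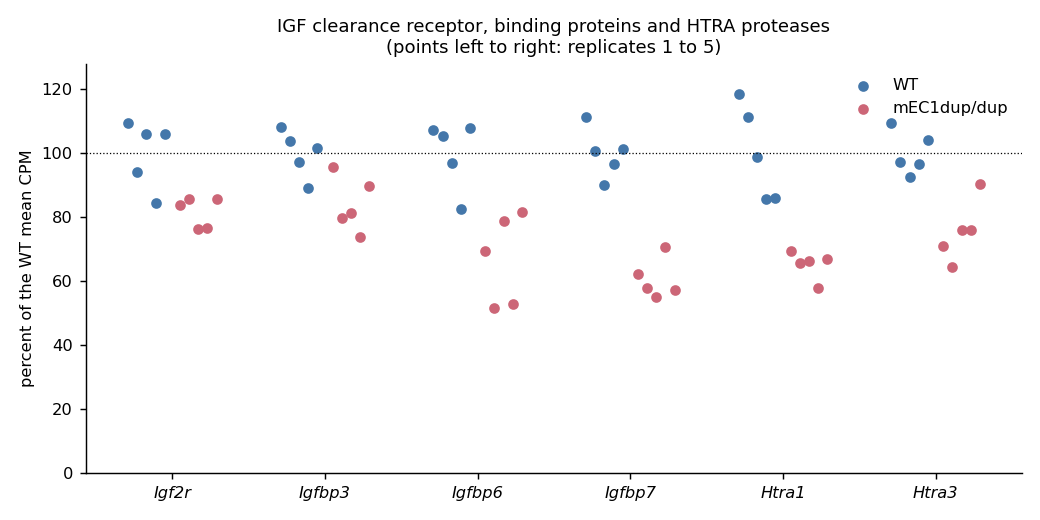
Level of *Igf2r*, *Igfbp3*, *Igfbp6*, *Igfbp7* and of the protease genes *Htra1* and *Htra3* in each library as a percentage of the WT mean CPM, on an axis that starts at 0, for 5 WT (blue) and 5 mEC1dup/dup (red) libraries. The genotypes are apart for *Igfbp6*, *Igfbp7*, *Htra1* and *Htra3*, and *Igf2r* and *Igfbp3* overlap through WT replicate 4.

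In a bulk sample, fewer cells of a type and less RNA per cell cannot be told apart, so markers of the cell types that could carry these transcripts are given beside them. Endothelial markers, among them *Pecam1*, *Cdh5* and *Kdr*, were called in 0 of 8 cases by edgeR, with a median log2 fold change of -0.05 and a summed level of 487 to 608 CPM in WT and 511 to 572 CPM in mEC1dup/dup libraries. The endothelial sum thus overlapped where *Igfbp7* did not. Of the pericyte and smooth muscle markers 1 of 7 tested was called lower, *Rgs5* (log2 fold change -0.50, adjusted p = 0.0378, edgeR). At an unadjusted p under 0.05 in the same fit 3 of the 7 were lower and 0 higher, beside 9.08% and 7.10% of all tested genes. Their sum overlapped at 526 to 638 and 512 to 595 CPM, and its largest part was *Acta2*, which averaged 238 and 258 CPM and was not called. *Tagln* of that list was close to 0 in both genotypes. Skeletal muscle markers had 1 of 8 called lower, *Ckm* (log2 fold change -2.25, adjusted p = 0.00126, edgeR), and overlapping sums of 1051 to 1648 and 850 to 1291 CPM. Chondrocyte markers were called in 0 of 7 cases, but 6 had a negative log2 fold change and the median was -0.42. Over all tested genes edgeR called 1.81% lower and 0.834% higher.

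The sums of 2 marker lists lay below WT in every mEC1dup/dup library, as *Igfbp6* and *Igfbp7* did. Perimysial and tendon markers had 3 of 5 called lower by edgeR, *C1qtnf3*, *Tnmd* and *Fmod*, while *Scx*, the tendon transcription factor on that list, stood at 0.24 ± 0.07 on the log2 scale (adjusted p = 0.0758); the list's sums were 248 to 331 CPM in WT and 194 to 234 CPM in mEC1dup/dup libraries. Mast cell markers had 3 of 4 called lower, *Cma1*, *Cpa3* and *Tpsb2*, with sums of 38.2 to 64.3 CPM and 21.3 to 29.4 CPM. Epithelial markers had 4 of 8 called lower, with overlapping sums of 908 to 1656 and 696 to 914 CPM. Beside these counts, edgeR called 1.81% of all tested genes lower and 0.834% higher. *Mcpt4*, the lowest mast cell marker, averaged 0.875 and 0.482 CPM, under the level that a call requires. No marker of these 3 lists was at 0 in any library. The part of these cell types in the IGF gene differences was not tested.

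Levels between genes were compared per length, as fragments per kilobase of exon at the same library scaling (FPKM). In WT the order was *Igfbp5* (321 ± 26.4), *Igfbp4* (320 ± 18.8), *Igfbp2* (185 ± 12.6), *Igfbp3* (120 ± 8.76), *Igf2r* (31.5 ± 3.30), *Igf1* (25.1 ± 4.06), *Igf1r* (7.56 ± 0.697), *Igfbp6* (4.95 ± 0.527) and *Igfbp7* (3.24 ± 0.255), each as mean ± SD of 5 libraries. At this union exon length *Igfbp4* and *Igfbp5* did not differ beyond their spread, and the ranges of *Igf2r* (26.6 to 34.5) and *Igf1* (21.4 to 30.9) overlapped. The other neighbours in this order were apart in their WT ranges. In mEC1dup/dup libraries the lower end of the order stood at 3.31 ± 0.697 FPKM for *Igfbp6* and 1.96 ± 0.200 FPKM for *Igfbp7*. The members lower in mEC1dup/dup embryos and without overlap were thus the 2 with the lowest levels per length.

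**Figure D3:**
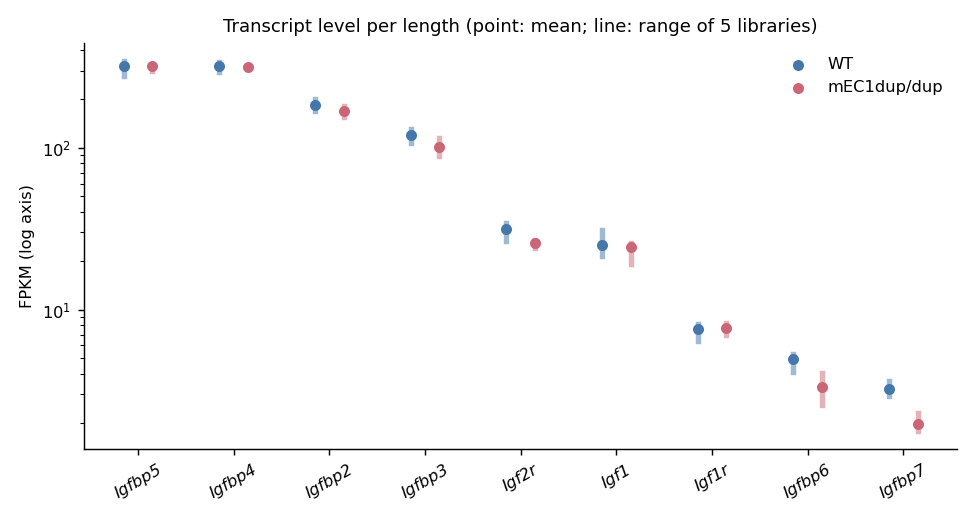
FPKM of the 9 IGF genes on a log axis, ordered by the WT mean, with points for the mean and lines for the range of 5 libraries in WT (blue) and mEC1dup/dup (red). Means in WT run from 321 for *Igfbp5* to 3.24 for *Igfbp7*, and the ranges of the genotypes are apart for *Igfbp6* and *Igfbp7*.

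Summed over the 6 binding protein genes, transcript per length was 996, 1002, 952, 853 and 972 FPKM in WT and 920, 903, 914, 889 and 922 FPKM in mEC1dup/dup libraries, and the genotypes overlapped. *Igfbp4* and *Igfbp5* together made up 67.1%, 67.4%, 66.0%, 66.9% and 68.4% of that sum in WT and 70.1%, 70.2%, 69.8%, 69.1% and 70.2% in mEC1dup/dup libraries. Their share was higher in every mEC1dup/dup library, although neither gene was called. *Igfbp3* held 12.6% ± 0.285 of the sum in WT and 11.1% ± 0.995 in mEC1dup/dup libraries, and *Igfbp2* held 19.4% ± 1.02 and 18.4% ± 1.35. *Igfbp7* held only 0.340% ± 0.0256 and 0.216% ± 0.0247, and *Igfbp6* 0.517% ± 0.0267 and 0.363% ± 0.0722 (SD, n = 5). *Igfbp7* was thus a small fraction of binding protein transcripts in the whole prominence of either genotype.

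Beyond the members, 47 further genes of the pathway were listed by role, of which 44 were tested. *Ins1*, *Ins2* and the carrier gene *Igfals* had too few counts to test. By edgeR 2 of 44 were called lower and 0 higher, beside 1.81% and 0.834% of all tested genes. DESeq2 called 3 of the list lower, beside its 3.10% of all genes, and limma 2, beside its 1.68%, and both called 0 higher, beside 1.95% and 0.724%. At an unadjusted p under 0.05 there were 6 lower and 2 higher of 44, beside 9.08% and 7.10% of all tested genes. The median log2 fold change of the 44 was -0.03. Both called genes encode secreted serine proteases of the HTRA family, which cleave matrix proteins and IGF binding proteins.

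*Htra1* had 132, 124, 110, 95.4 and 95.7 CPM in WT and 77.5, 73.2, 74.0, 64.4 and 74.4 CPM in mEC1dup/dup libraries, with no overlap. Its log2 fold change was -0.62 ± 0.09 (adjusted p = 0.00450, edgeR), and the call held in all 10 fits without 1 library. With *Xist* as a covariate it was -0.64 (adjusted p = 0.241), and against mEC1dup/dup replicates 4 and 5 alone -0.68 (adjusted p = 0.159). With the globin share it was 0.15 ± 0.33 (adjusted p = 0.956), above 0 by less than its SE. *Htra3* had 25.1, 22.3, 21.2, 22.2 and 23.9 CPM in WT and 16.3, 14.8, 17.4, 17.4 and 20.7 CPM in mEC1dup/dup libraries. Its log2 fold change was -0.40 ± 0.09 (adjusted p = 0.0260, edgeR), and the call was lost in 6 of 10 such fits, those without WT replicates 1, 2 or 5 or mEC1dup/dup replicates 2, 3 or 4. It was -0.18 (adjusted p = 0.648) with *Xist* as a covariate and -0.27 (adjusted p = 0.388) against mEC1dup/dup replicates 4 and 5 alone. With the globin share it was 0.08 ± 0.35 (adjusted p = 0.977), above 0 by less than its SE. *Htra3* lies 252 kb from *Hmx1* on chromosome 5. The summed level of the 6 protease and protease inhibitor genes was 194 to 244 CPM in WT and 154 to 184 CPM in mEC1dup/dup libraries. That sum averaged 218 and 170 CPM, of which *Htra1* alone averaged 112 and 72.7 CPM. It mixes proteases with their inhibitors, and 4 of the 6 genes were not called.

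*Pappa*, which encodes the protease of IGFBP4, pointed the other way without a call (12.2 to 17 CPM in WT, 15.2 to 20.8 CPM in mEC1dup/dup; log2 fold change 0.31 ± 0.11, adjusted p = 0.170, edgeR), and it stood at 0.05 with *Xist* as a covariate. *Igf2*, the main fetal ligand, had 758, 727, 847, 671 and 865 CPM in WT and 683, 691, 763, 597 and 856 CPM in mEC1dup/dup libraries. The genotypes overlapped, and its log2 fold change was -0.11 ± 0.09 (adjusted p = 0.622, edgeR; 95% interval in fold 0.811 to 1.06). Per length *Igf2* exceeded *Igf1* by a ratio of 5.10 ± 0.966 in WT and 4.82 ± 0.430 in mEC1dup/dup libraries. Its ratio to *Igf2r* was 3.56 to 4.21 in WT and 4.03 to 5.15 in mEC1dup/dup libraries, where replicates 3 and 5 lay above the WT range. *Insr*, the insulin receptor gene, stood at -0.06 ± 0.06 on the log2 scale (adjusted p = 0.678, edgeR). Of the 8 adaptor, 17 PI3K-AKT-TOR and 3 FOXO genes downstream of IGF1R, 0 were called in either direction by edgeR, where 1.81% of all tested genes were called lower and 0.834% higher. At an unadjusted p under 0.05, 2 of the PI3K-AKT-TOR genes were lower and 0 of these genes higher, beside 9.08% and 7.10% of all tested genes. *Pdpk1*, which encodes a kinase that activates AKT, had 73.8 to 79.0 CPM in mEC1dup/dup and 80.6 to 90.4 CPM in WT libraries, with no overlap but no call (log2 fold change -0.13 ± 0.04, adjusted p = 0.123, edgeR).

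**Figure D4:**
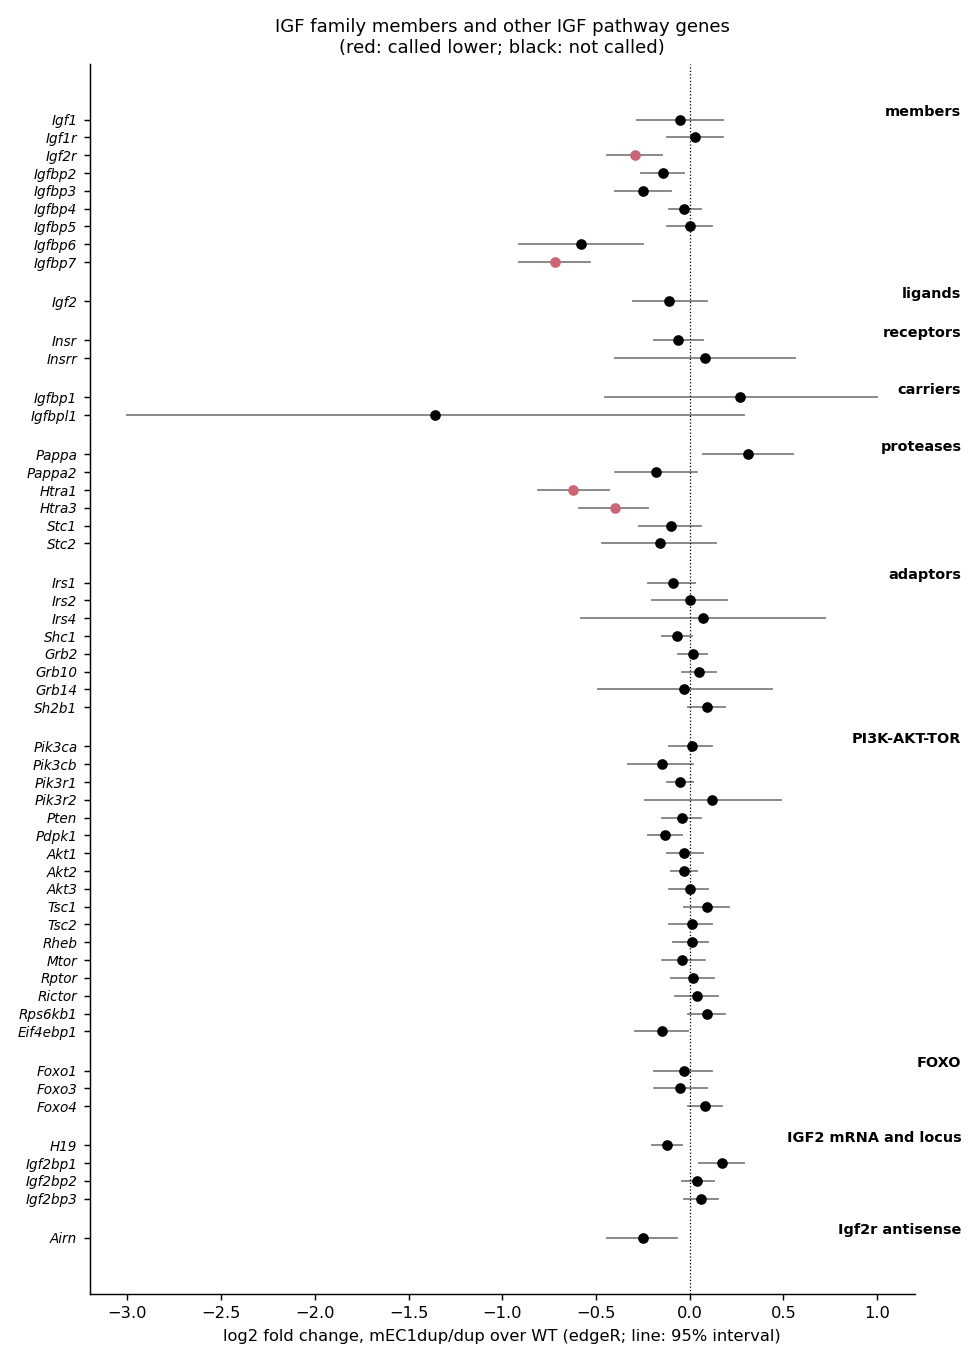
log2 fold change (mEC1dup/dup over WT) of the 9 IGF genes and of the 44 tested pathway genes, grouped by role, with lines for the 95% interval of each value from the edgeR fit to 10 libraries. *Igf2r*, *Igfbp7*, *Htra1* and *Htra3* are in red as called lower, and no gene was called higher.

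After each genotype's mean was taken off the log2 CPM values, *Igf1* with *Igfbp2* had Pearson r = -0.76 over the 10 libraries (Spearman rho = -0.84). It was -0.72 without the 2 libraries farthest from the median of the first-named gene, the rule used for each pair. Of the 36 pairs of members that was the only 1 at -0.7 or below, and 5 had r of at least 0.7. The pairs were *Igf1r* with *Igfbp2* (r = 0.84, rho = 0.78, 0.80 without the 2 farthest), *Igfbp3* with *Igfbp5* (r = 0.79, rho = 0.75, 0.84) and *Igfbp3* with *Igfbp6* (r = 0.70, rho = 0.58, 0.70), in the same order of measures. *Igf2r* with *Igfbp5* (r = 0.80, rho = 0.55) and *Igfbp4* with *Igfbp5* (r = 0.75, rho = 0.68) went to 0.56 and 0.34 without the 2 farthest. *Igfbp7* was in none of these pairs, but *Igfbp5* with *Igfbp7* (r = 0.05, rho = 0.35) went to 0.97 without the 2 farthest, which were picked by *Igfbp5* alone. *Igfbp3* with *Igfbp4* (r = 0.54, rho = 0.47) went to 0.82. On the same scale, the gene most like *Igfbp7* over the 10 libraries was *Nup54* (Pearson r = 0.93, Spearman rho = 0.94, r = 0.92 without the 2 farthest libraries). For these most alike genes the 2 libraries left out were those farthest in the other gene, not in the member. *Nup54* was followed by *Slc6a2* (r = 0.92, 0.90 without the 2 farthest) and *Fgf9* (r = 0.91, 0.73 without the 2 farthest). For *Igfbp6* the most alike were *Tmem53* (r = 0.95, rho = 0.88, 0.92 without the 2 farthest), *Stk11* (r = 0.93, 0.87 without the 2 farthest) and *Tchh* (r = 0.92, 0.87 without the 2 farthest). These are the highest of 14084 genes compared over the same 10 libraries, they share library depth, and they are given with no test. Each member was also set against each of the 14 marker lists, 126 relations in all. A list was taken as the mean log2 CPM of its tested markers, with genotype means taken off, and the 2 farthest libraries were those farthest in that mean. *Igf2r* followed pericyte and smooth muscle markers (r = 0.95, rho = 0.89, 0.88 without the 2 farthest libraries). *Igfbp2* followed melanoblast markers (r = 0.90, rho = 0.88, 0.91 without the 2 farthest) and *Igf1* skeletal muscle markers (r = 0.84, rho = 0.90, 0.77 without the 2 farthest). For *Igfbp7* the highest was the endothelial list at r = 0.54, with 0.36 without the 2 farthest libraries.

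**Figure D5:**
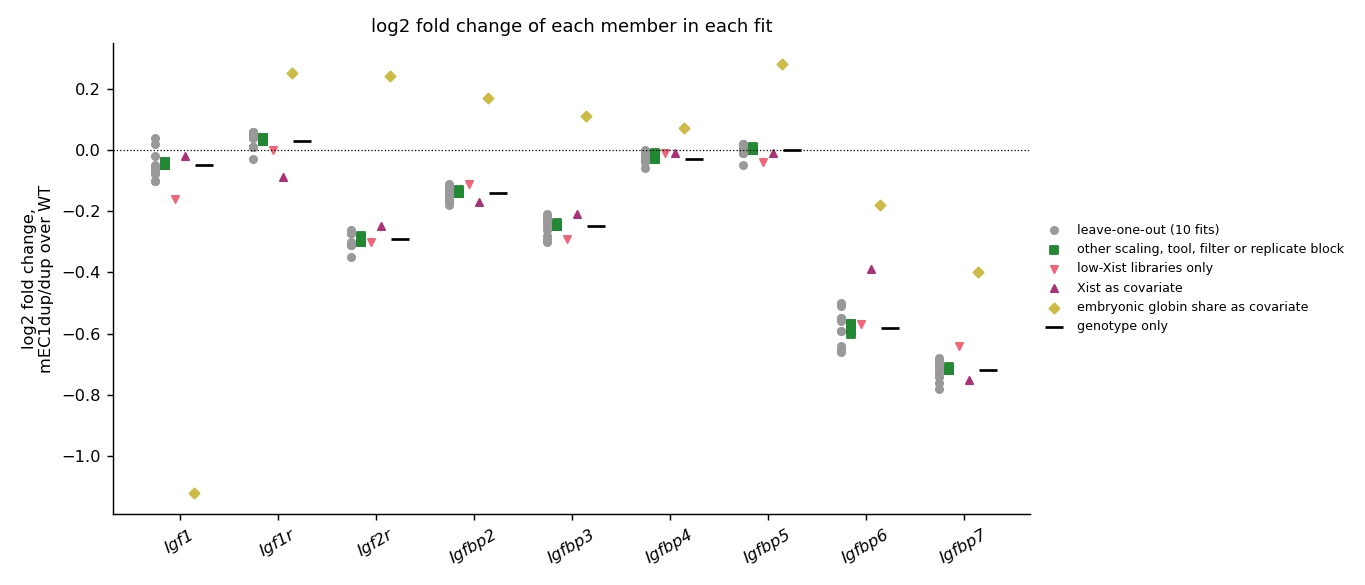
log2 fold change (mEC1dup/dup over WT) of each IGF gene in the genotype-only fit (black bar), in the 10 fits that left out 1 library (grey), under other scalings, tools, filters or the replicate block (green), with low-*Xist* libraries only (triangle down) and with *Xist* (triangle up) or the embryonic globin share (diamond) as a covariate. *Igfbp7* and *Igfbp6* stay below 0 in every fit shown. With the globin share *Igf2r* (0.24 ± 0.26, SE), *Igfbp2* (0.17 ± 0.23) and *Igfbp3* (0.11 ± 0.30) lie above 0, each by less than its SE.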

How the data were processed

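Raw counts per gene were deposited for 10 bulk RNA-seq libraries. Per the labels and methods, the authors trimmed reads with fastp, checked them with FastQC, aligned them to GRCm39 with STAR and made the counts with featureCounts; the annotation release and strand setting are not given in the sources used here, and the sources name 2 different library kits, neither of which marks strand. Reads carried no molecular identifiers, so counting errors cover counting only. Gene IDs were matched to GENCODE vM39 (49355 of 53465 rows; the others hold 0.111% of counts).

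Counts were tested with edgeR 4.0.16 in R 4.3.3 (filterByExpr, TMM, quasi-likelihood F test on genotype, Benjamini-Hochberg over 16426 genes). CPM were scaled by TMM library sizes, log2 CPM used a prior count of 2, and FPKM used the union exon length. The code was tested on simulated data. Alternatives used DESeq2 1.42.0, limma 3.58.1 (voom), other scalings, filters and thresholds, covariates, a replicate block and each library left out in turn.

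The text names all 9 members. From the pathway list it names every gene that edgeR called or that was not tested, with *Igf2*, *Igfbp1*, *Insr*, *Airn* and *Pappa*. It also names the 3 genes most like each member whose genotypes did not overlap. Other genes named were chosen after their values were seen. The members and lists were chosen with earlier results of these data known. Replicates came from separate embryos according to the methods.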

Additional observations from a re-analysis of the deposited data

Results flagged for a closer look

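Values of 15 genes in each genotype, 30 groups of 5 libraries, were examined for a library far from the other 4, and 2 stood out; chance alone marks about 1 in 20 groups. *Igf1* was at 195 CPM in mEC1dup/dup replicate 4, where the other 4 libraries had 256 to 265 CPM. *Igf1r* was at 125 CPM in WT replicate 4, where the other 4 had 152 to 161 CPM.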

How the results depend on the processing

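Of the 9 members, 2 were called lower in the reported fit. The count was 4 with DESeq2's Wald test, 1 with the limit on adjusted p at 0.01 (all genes: 62 lower, 16 higher), 0 with *Xist* or the embryonic globin share as a covariate, 0 with low-*Xist* libraries only (added after seeing the data) and 1 to 4 when 1 library was left out (4 without WT replicate 4). Other pathway genes called lower numbered 2, and 1 at the stricter adjusted p, 0 with either covariate, 0 with low-*Xist* libraries only and 1 to 3 without 1 library. Over all genes DESeq2 called 510 lower and 321 higher, and limma 276 and 119. With *Xist* 1 gene was lower and 2 higher of 16426 (1539 at an unadjusted p under 0.05), and with low-*Xist* libraries 0 lower and 1 higher of 17165 (1853 at an unadjusted p under 0.05), so a 0 among the members is what nearly every gene showed. Without 1 library 120 to 476 genes were lower and 34 to 179 higher. No alternative called a member or other pathway gene higher. With the replicate number as a block, 4 members were called lower (*Igfbp7*, *Igf2r*, *Igfbp3* at an adjusted p of 0.00514 and *Igfbp6* at 0.0381), and over all genes 488 were lower and 200 higher, against 298 and 137. The deviations of same-numbered libraries correlated at -0.064, 0.225, 0.258, 0.428 and 0.305 (mean 0.230, against -0.057 for other pairs), and 4 of 10 libraries correlated best with their own number. The study's reporting summary takes mouse replicates from siblings of separate litters, without tying a replicate number to a litter. Not every pair passed 0.1, so the numbers were not taken to pair the libraries.

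With the globin share in the fit, no gene of 16426 was called by edgeR (795 at an unadjusted p under 0.05), and the sign turned for *Igf2r* (0.24), *Igfbp2* (0.17), *Igfbp3* (0.11), *Igfbp4* (0.07), *Igfbp5* (0.28), *Igf2* (0.14), *Insr* (0.33), *Pappa* (-0.26), *Htra1* (0.15) and *Htra3* (0.08). The globin share did not overlap between the genotypes. With it the SE of the members ran from 0.18 to 0.67, against 0.04 to 0.15 in the reported fit, so a turned sign is not read as a reversal. With *Xist* the sign turned for *Igf1r* (-0.09) and *Igf2* (0.07). *Igf1r* was at -0.00 with low-*Xist* libraries only. Without 1 library *Igf1r* ranged from -0.03 to 0.06, *Igf1* from -0.10 to 0.04, *Igfbp4* from -0.06 to 0.00 and *Igfbp5* from -0.05 to 0.02. *Igfbp5* turned to 0.00 with DESeq2's size factors, DESeq2, voom, no filter or the block and to 0.01 with library totals. With the length of the longest transcript 5 of 9 members kept their rank by level in WT. *Igfbp4* (369 FPKM) then stood above *Igfbp5* (321 FPKM) at the top, and *Igf1* (33.9 FPKM) above *Igf2r* (33.0 FPKM). In each of these cases the cause was not tested. Among the members depth limits *Igfbp6* most, with 64 counts in its lowest library, and *Igfbp1* of the pathway list had 5.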
